A study of Mus musculus with 16 samples.

Results

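Autophagy and lysosome genes were followed in quadriceps muscle of mice that lack myotubularin. They were 36 of the 41388 genes in the table, chosen by name for their place in the pathway, each matched to the row that carries its symbol. Earlier results of these data were known when they were chosen. The set held 24 genes of autophagosome formation and cargo capture, the transcription factor Tfeb and 11 genes of the lysosome. The 16 libraries came from C57BL/6 mice at postnatal day 36, 4 in each of 4 groups. WT were wild-type mice and KO were Mtm1 knockouts, made by germline removal of exon 4, both on standard chow without drug. WT_TAM and KO_TAM were the same genotypes given tamoxifen citrate, an estrogen receptor modulator, in the chow at 40 mg/kg per day from day 21. The deletion is constitutive and not limited to muscle, so that effects of the loss within muscle and of weakness of the whole animal cannot be told apart. The question was whether the genes that build autophagosomes and those that make up the lysosome differ with the loss of Mtm1, and whether tamoxifen moves them.

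Macroautophagy encloses cytoplasm in a double membrane that closes into an autophagosome and fuses with a lysosome, where hydrolases digest the cargo. The ULK kinase starts the process, a class III phosphoinositide 3-kinase marks the new membrane with PI3P, and conjugation enzymes attach LC3 and GABARAP proteins to it, to which cargo receptors bind. Myotubularin is a lipid phosphatase that removes the phosphate PI3P carries, which is what ties it to this pathway, and skeletal muscle depends on autophagy to clear mitochondria and damaged protein. An mRNA level does not measure autophagic flux, the conjugated form of LC3 or enzyme activity.

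Library totals ran from 25116179 to 29847222 counts, and all 36 genes passed the filter on low counts in every comparison. Mtm1, the deleted gene, had 341 to 369 counts in WT replicates 2 to 4, 282 to 459 in WT_TAM, 63 to 76 in KO replicates 9 to 11 and 53 to 97 in KO_TAM. In the library labelled WT replicate 1 the count of Mtm1 was 74, which lies in the knockout range and goes against its label. This library and KO replicate 12 were not among the 14 that the study itself compared. WT replicate 1 lay outside the range of the other 3 WT libraries for 32 of the 36 genes and KO replicate 12 outside that of the other 3 KO libraries for 29, while the same count was 6 to 23 for each of the 14. The results below rest on the other 14 libraries (n = 3 for WT and KO, n = 4 for WT_TAM and KO_TAM), and values with all 16 are given for genes whose KO against WT result changed most. The summed level of 10 skeletal muscle fiber genes was 81741 to 108733 in WT and 46715 to 56545 in KO, with 7 of the 10 negative in KO against WT and 3 myosin genes (Myh1, Myh2 and Myh7) positive. The 10 most abundant genes took 23.6 to 27.6% of counts in WT and 16.9 to 18.8% in KO. In these 2 values the library labelled WT replicate 1 was unlike KO, with a fiber sum of 121868 and a share of 26.9%. Its level lay within the range of KO replicates 9 to 11 for 14 of the 36 genes. The genotype of this library was not tested further. Scaling by library size alone in place of TMM factors shifted all genes upward in KO against WT, their median log2 fold change going from 0.02 to 0.33. Levels are RPKM (reads scaled to gene length and sequencing depth) divided by the TMM factor of the library.

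**Figure D1:**
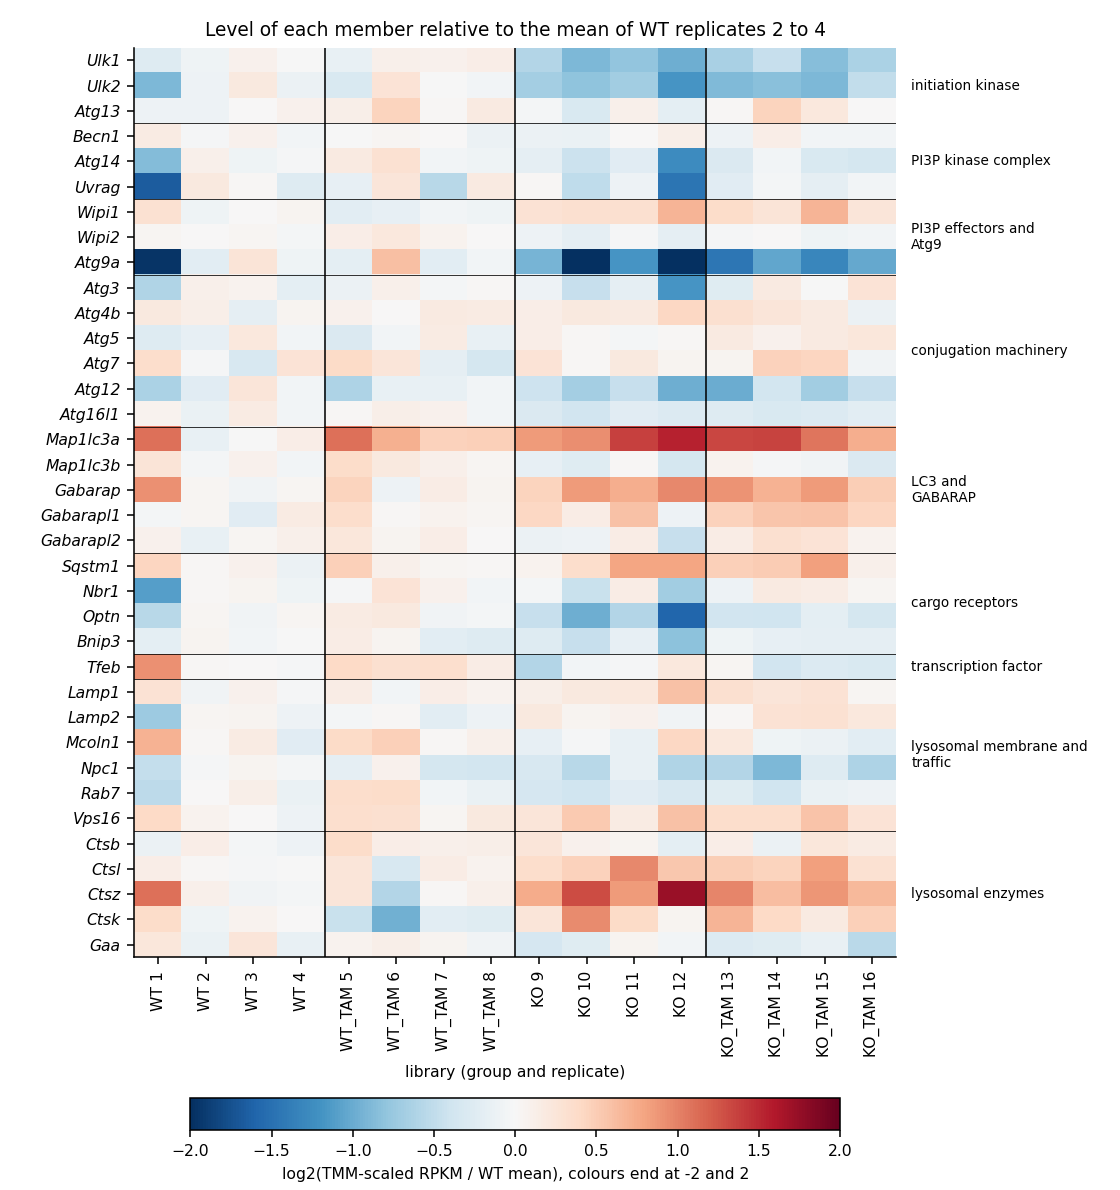
Level of each of the 36 genes (rows, grouped by role) in each of the 16 libraries (columns), as log2 of the TMM-scaled RPKM over the mean of WT replicates 2 to 4. The rows of Ulk1, Ulk2 and Atg9a are blue and those of Ctsz and Gabarap are red across the KO and KO_TAM libraries, and WT replicate 1 departs from WT replicates 2 to 4.

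Per length, the most abundant of the 36 mRNAs in WT was Lamp1, a major glycoprotein of the lysosomal membrane, at 205 ± 10.9 (SD, n = 3). Map1lc3a, which encodes an LC3 protein, followed at 182 ± 18.3, and the cargo receptor Sqstm1 (p62) at 140 ± 9.69. In KO the order at the top was Map1lc3a at 382 ± 77.9 (SD, n = 3), Lamp1 at 232 ± 7.72 and Sqstm1 at 188 ± 47.6, and the Lamp1 and Sqstm1 libraries of KO overlapped. At the low end stood Atg7, the activating enzyme of both conjugation systems, at 1.68 ± 0.34 in WT and 1.88 ± 0.166 in KO. The order did not follow the kind of protein. In WT the lysosomal membrane genes Lamp2, Mcoln1 and Npc1 ranked 23, 27 and 34 among the 36. The enzyme genes Ctsl, Ctsb and Gaa ranked 5, 7 and 9.

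Between KO and WT, 3 of the 36 genes passed (edgeR quasi-likelihood test, Benjamini-Hochberg adjusted p at most 0.01 here and below). Map1lc3a and the cathepsin Ctsz were higher and the kinase Ulk1 was lower. Of all 14740 genes tested, 3.6% were called, 1.91% as higher and 1.69% as lower. At an adjusted p of 0.05, 8 of the 36 passed, 4 in each direction, against 12.8% of all genes. The median log2 fold change of the 36 was -0.06, beside 0.02 for all genes. The levels of KO and WT did not overlap for 9 genes that were higher and 10 that were lower, where 17.4% and 18.9% of all genes did so. No gene was called (0 of 36) on leaving out any of WT replicates 2, 3 and 4 or either of KO replicates 10 and 11, nor when WT replicate 1 and KO replicate 12 were added. Without KO replicate 9 the 3 genes called were Map1lc3a, Gabarap and Ctsz, so that the call of Ulk1 held on leaving out no library (lowest adjusted p = 0.0105). DESeq2 called 8 of the 36 in the same libraries. Its share of all genes is not given here, so this count cannot be set against all genes.

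Between KO_TAM and WT_TAM, which share no library with the comparison above, 5 of the 36 passed. Ctsz and Ctsk, both cathepsins, were higher, and Ulk1, Ulk2 and the membrane protein gene Atg9a were lower. Of 14563 genes tested, 6.72% were called, 3.42% as higher and 3.3% as lower. At an adjusted p of 0.05, 12 passed, 6 in each direction, against 17% of all genes. Levels did not overlap for 7 higher and 8 lower genes, against 10.9% and 11.6% of all genes. The sign of the log2 fold change was the same in both comparisons for 33 of the 36 genes, positive in 15 and negative in 18. The share of all genes with the same sign is not given here, so this count does not set the 36 apart. The count of 5 was 2 without WT_TAM replicate 7, 1 without WT_TAM replicate 8, 3 without KO_TAM replicate 13 or 16, and 2 without KO_TAM replicate 14 or 15.

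With the 7 knockout libraries set against the 7 wild-type libraries over both treatments, which reuses the libraries of both comparisons, 14 of the 36 genes passed, 7 higher and 7 lower. This was 38.9% of the set, beside 19.4% of the 15556 genes tested (8.99% higher and 10.4% lower). Because the set was chosen with earlier results of these data known, these shares are a description and not a test of the set. At an adjusted p of 0.05 the count was 20, beside 33.3% of all genes. The 7 higher genes were Wipi1, Map1lc3a, Gabarap, Gabarapl1, Ctsl, Ctsz and Ctsk. The 7 lower genes were Ulk1, Ulk2, Atg9a, Atg12, Atg16l1, Optn and Tfeb. All 14 knockout and wild-type libraries were apart for 4 of the higher genes (Wipi1, Ctsl, Ctsz and Ctsk) and 5 of the lower (Ulk1, Ulk2, Atg9a, Atg16l1 and Optn), against 5.03% and 5.68% of all genes. Under scaling by library size alone 11 of the 36, among them Atg16l1, turned from negative to positive. With 16 libraries 9 of the 14 calls were left, those of Atg12, Map1lc3a, Gabarap, Gabarapl1 and Tfeb being lost at adjusted p = 0.029, 0.017, 0.0126, 0.0237 and 0.0313.

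**Figure D2:**
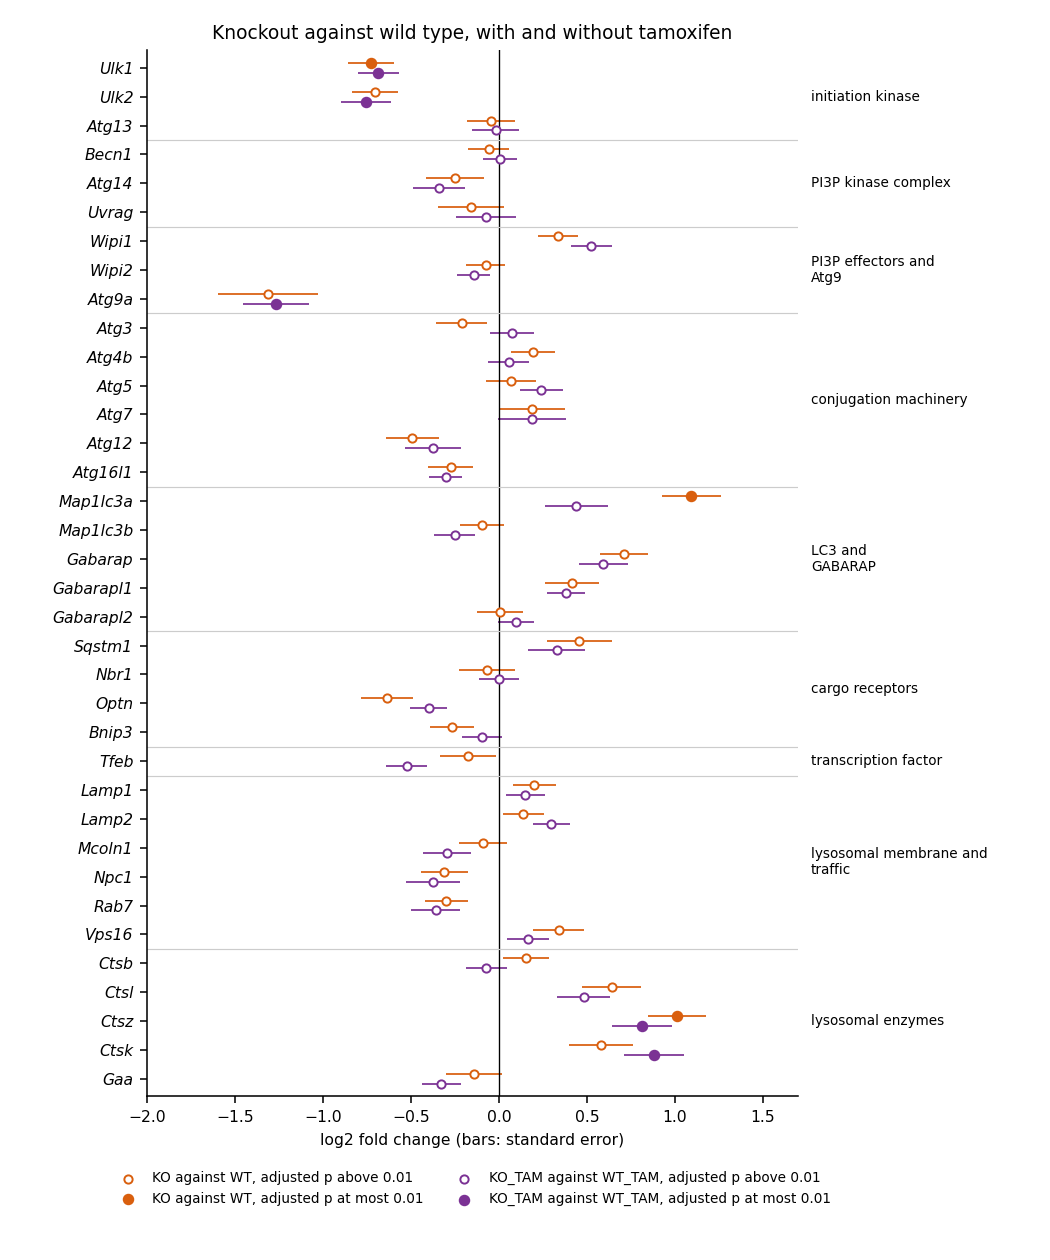
Log2 fold change (x axis) of each gene (y axis, grouped by role) in KO against WT (orange) and KO_TAM against WT_TAM (purple), with bars of 1 standard error and filled points where the adjusted p was at most 0.01. Ulk1, Ulk2 and Atg9a lie at -0.68 or below in both comparisons, while Ctsz lies at 0.81 or above.

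Both ULK kinase genes were among the lower genes. Ulk1 (chr5:110784488-110810097, minus strand, GRCm38) encodes the kinase that starts autophagosome formation when nutrients are short. Its level was 12.8, 14.6 and 13.6 in WT, 12.3, 14.7, 14.5 and 14.9 in WT_TAM, 9.12, 7.32 and 7.89 in KO and 8.74, 9.93, 7.55 and 8.84 in KO_TAM. Every knockout library was below every wild-type library. The log2 fold change was -0.73 ± 0.131 (SE) in KO against WT (adjusted p = 0.00956) and -0.68 ± 0.115 in KO_TAM against WT_TAM (adjusted p = 0.00297). With 16 libraries the first was -0.72 (adjusted p = 0.0239), and the library labelled WT replicate 1, at 11.4, lay between the 2 genotypes.

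Ulk2 (chr11:61775649-61855073, minus strand) encodes a second kinase of the same family with overlapping function. Its level was 19.0, 23.2 and 18.8 in WT and 16.5, 24.5, 20.1 and 19.6 in WT_TAM. In KO it was 12.6, 11.6 and 12.5, and in KO_TAM 10.98, 11.4, 10.9 and 14.5. The genotypes did not overlap, and the log2 fold change was -0.71 ± 0.13 in KO against WT (adjusted p = 0.0107, over the threshold) and -0.76 ± 0.142 in KO_TAM against WT_TAM (adjusted p = 0.00491). The library labelled WT replicate 1, at 10.9, lay among the knockouts, and with 16 libraries the KO against WT value was -0.63 (adjusted p = 0.144). Atg13, the scaffold that holds ULK1 in its complex, overlapped between the genotypes. Its log2 fold change was -0.05 in KO against WT and -0.02 in KO_TAM against WT_TAM, with library size scaling giving 0.26 and 0.27. Both kinase genes were negative in the genotype comparisons under every alternative tried.

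Of the PI3P kinase complex, none of the 3 genes passed at 0.01. Becn1, the regulatory subunit Beclin 1, had 10.6 to 11.6 in WT and 10.003 to 11.1 in KO. Atg14, the subunit that directs the kinase to new autophagosomes, had 2.42 to 2.76 in WT and 1.91 to 2.28 in KO. Its log2 fold change was -0.25 in KO against WT, -0.34 in KO_TAM against WT_TAM and -0.31 ± 0.102 over both treatments (adjusted p = 0.0297). Uvrag, the subunit of the form that acts later and on endosomes, had -0.16 and -0.07. Under library size scaling the KO against WT values of all 3 turned positive. Exons of Becn1 share 43.9% of their bases with Cntd1 on the other strand, and whether counting used strand is not given in the sources used here.

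Downstream of PI3P the 3 genes went apart. Atg9a (chr1:75180860-75192196, minus strand) encodes the scramblase whose vesicles seed the growing membrane. Its level was 11.1, 15.5 and 12.2 in WT and 11.4, 19.7, 11.2 and 12.5 in WT_TAM. In KO it was 6.81, 2.86 and 5.74, and in KO_TAM 4.78, 6.34, 5.25 and 6.37. The genotypes did not overlap, and this was the lowest log2 fold change of the 36 genes in both comparisons. It was -1.31 ± 0.285 in KO against WT (adjusted p = 0.02, over the threshold) and -1.27 ± 0.187 in KO_TAM against WT_TAM (adjusted p = 0.00145). The call in KO_TAM against WT_TAM held under each of 19 alternatives. Outside these 14 libraries Atg9a was at 3.33 in WT replicate 1 and 0.775 in KO replicate 12, the lowest value of all, and with 16 libraries the adjusted p in KO against WT was 0.235. Of its exon bases, 31.8% lie in the annotated transcript Gm29253 on the same strand.

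Wipi1 and Wipi2 encode the PI3P binding proteins that recruit the conjugation machinery. Wipi1 (chr11:109573331-109611967, minus strand) had 15.3, 16.3 and 16.8 in WT and 13.9, 14.4, 15.5 and 15.2 in WT_TAM. In KO it had 19.8, 20.05 and 20.2, and in KO_TAM 20.9, 19.3, 25.7 and 18.97. All knockout libraries were above all wild-type libraries, but the library labelled WT replicate 1 was at 20.01, among the knockouts. The log2 fold change was 0.34 ± 0.112 in KO against WT (adjusted p = 0.0798), 0.53 ± 0.118 in KO_TAM against WT_TAM (adjusted p = 0.0118) and 0.42 ± 0.0789 over both (adjusted p = 0.000917). Wipi2 did not share this: its log2 fold change was -0.07 in KO against WT and -0.14 in KO_TAM against WT_TAM, and both turned positive under library size scaling.

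The 6 genes of the conjugation machinery held 2 calls, both lower and both only over the 7 libraries of each genotype. Atg12 encodes the ubiquitin-like protein that is joined to ATG5, and Atg16l1 (chr1:87755870-87792428, plus strand) the partner that places this conjugate on the membrane. Atg12 had 12.8, 17.7 and 14.5 in WT and 9.76, 13.5, 13.5 and 14.4 in WT_TAM. It had 11.2, 9.33 and 10.9 in KO and 7.53, 11.7, 9.30 and 10.9 in KO_TAM, so that WT_TAM replicate 5 lay among the knockouts. Its log2 fold change over both treatments was -0.45 ± 0.118 (adjusted p = 0.00935), and -0.13 under library size scaling.

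Atg16l1 had 3.16, 3.89 and 3.32 in WT and 3.496, 3.73, 3.69 and 3.33 in WT_TAM. It had 2.83, 2.64 and 2.97 in KO and 2.90, 2.78, 2.85 and 2.996 in KO_TAM, a small difference in which the genotypes did not overlap. The log2 fold change over both treatments was -0.30 ± 0.071 (adjusted p = 0.00448), but 0.01 under library size scaling, so that its direction depends on the scaling. The other 4 were not called in any comparison. Atg3, the enzyme that transfers LC3 to lipid, had log2 fold changes of -0.21 in KO against WT and 0.07 in KO_TAM against WT_TAM. Atg4b, the protease that trims LC3, had 0.19 and 0.06. Atg5, the partner of ATG12, had 0.07 and 0.24, and Atg7 had 0.19 in both comparisons.

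The LC3 and GABARAP genes, which encode the proteins that coat the autophagosome, held 3 calls over both treatments, all higher. Map1lc3a (chr2:155276297-155278073, plus strand) had 164, 182 and 200 in WT and 329, 346 and 472 in KO. It was 2.13 times as high in KO, with a log2 fold change of 1.09 ± 0.168 (adjusted p = 0.00521), the highest of the 36 genes. In WT_TAM its level was 389, 297, 251 and 253 and in KO_TAM 461, 466, 383 and 302, groups that overlapped. That difference was 0.44 ± 0.178 (adjusted p = 0.113). The library labelled WT replicate 1 had 391, well above the other WT libraries, and with it and KO replicate 12 the KO against WT value was 0.86 (adjusted p = 0.132).

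Gabarap (chr11:69991143-69994951, plus strand) belongs to the other branch of the family. It had 72.0, 66.5 and 71.8 in WT, 95.5, 65.7, 77.8 and 72.5 in WT_TAM, 95.4, 126 and 116 in KO and 131, 113, 127 and 98.6 in KO_TAM. KO libraries were above WT libraries and KO_TAM above WT_TAM, although WT_TAM replicate 5 reached the lowest KO value. The log2 fold change was 0.71 ± 0.138 in KO against WT (adjusted p = 0.0129), 0.59 ± 0.14 in KO_TAM against WT_TAM (adjusted p = 0.0152) and 0.64 ± 0.101 over both (adjusted p = 0.000224). WT replicate 1, as labelled, was at 132, and with 16 libraries the KO against WT value was 0.49 (adjusted p = 0.293). Gabarapl1 (chr6:129533160-129542346, plus strand), a close relative, had 22.4 to 29.3 in WT, 26.7 to 33.3 in WT_TAM, 28.9 to 39.3 in KO and 35.4 to 39.1 in KO_TAM. Its log2 fold change over both was 0.39 ± 0.0905 (adjusted p = 0.00434). Of its exon bases, 28.3% overlap a gene on the other strand.

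The other LC3 gene and the other GABARAP relative were not called in any comparison. Map1lc3b, whose protein is the usual marker of autophagosomes, had 23.4 to 25.7 in WT and 20.4 to 24.8 in KO, and its log2 fold changes were -0.10 in KO against WT and -0.25 in KO_TAM against WT_TAM, both positive under library size scaling. Gabarapl2 had 0.01 and 0.10. The summed level of the 5 genes was 311 to 355 in WT and 507 to 683 in KO. Map1lc3a took 52.6 to 56.5% of this sum in WT, 60.8 to 66.9% in WT_TAM, 63.2 to 69.1% in KO and 62.3 to 69% in KO_TAM, so that WT replicates 2 to 4 lay below the other 3 groups. With a sum of 607 and a Map1lc3a share of 64.4%, the library labelled WT replicate 1 lay inside them.

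**Figure D3:**
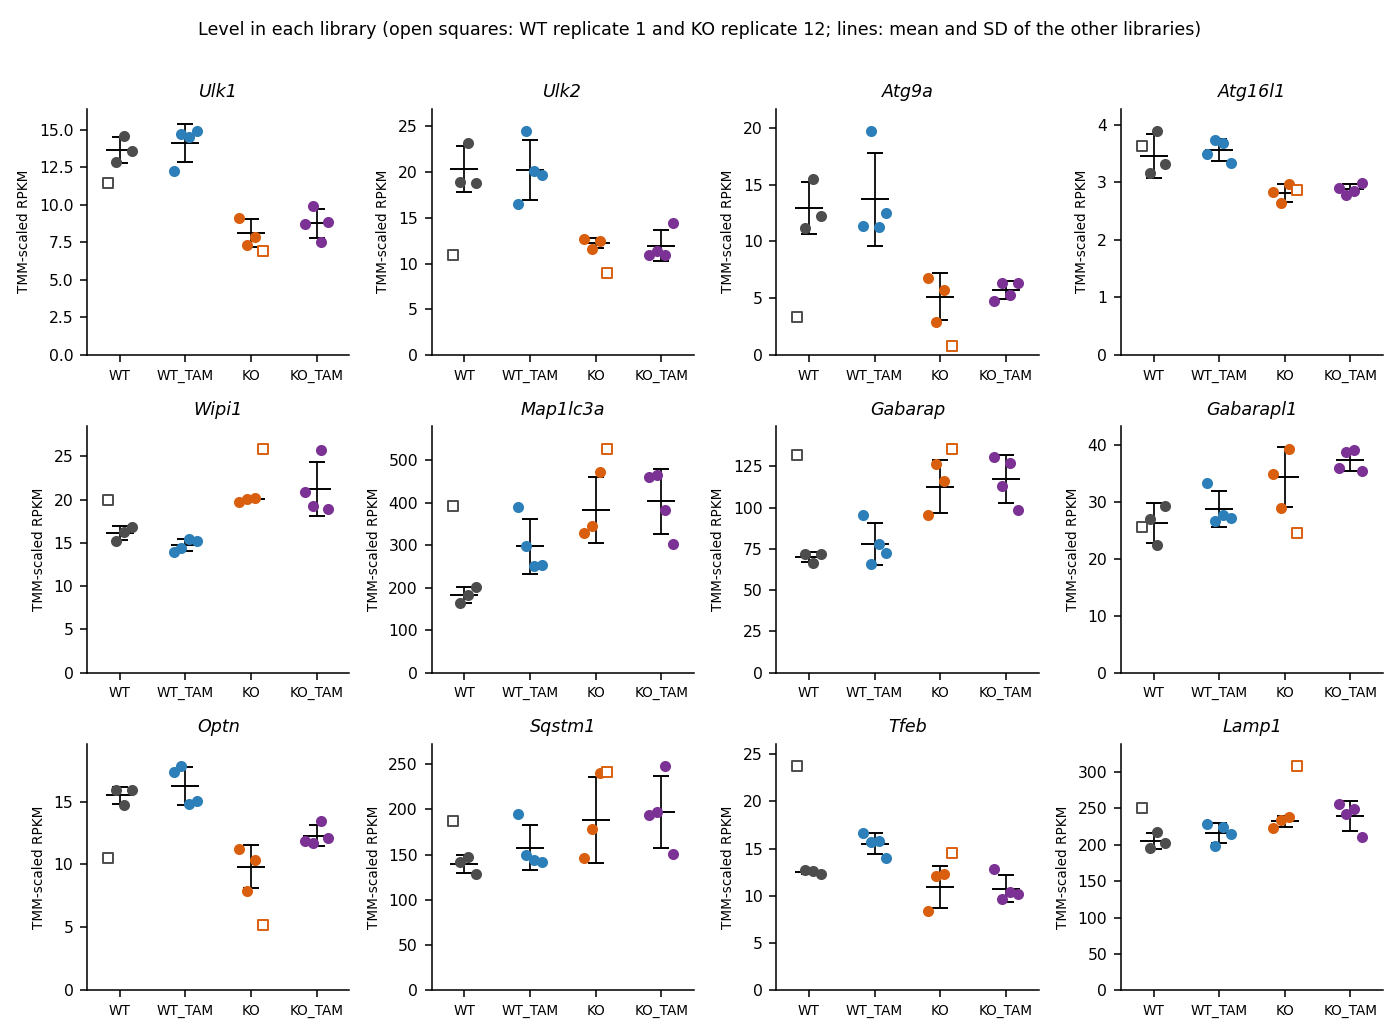
TMM-scaled RPKM (y axis, from 0) of 12 genes in each library by group, with the mean and SD over n = 3 (WT, KO) or 4 (WT_TAM, KO_TAM) libraries, and open squares for WT replicate 1 and KO replicate 12. Over the filled points the genotypes are apart for Ulk1, Ulk2, Atg9a, Atg16l1, Wipi1 and Optn. In the same points the Map1lc3a libraries of WT_TAM, at 251 to 389, lie above those of WT. The open square of WT replicate 1 is at 391 for Map1lc3a and lies among the knockouts for Ulk2, Atg9a, Wipi1 and Optn.

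The 4 cargo receptors did not move together. Optn (chr2:5020642-5064051, minus strand), optineurin, binds ubiquitin on mitochondria and bacteria. It had 15.9, 14.7 and 15.9 in WT and 17.3, 17.8, 14.8 and 15.03 in WT_TAM. In KO it had 11.2, 7.89 and 10.4, and in KO_TAM 11.9, 11.7, 13.5 and 12.1. All knockout libraries lay below all wild-type libraries, with log2 fold changes of -0.63 ± 0.149 in KO against WT (adjusted p = 0.0261) and -0.40 ± 0.105 in KO_TAM against WT_TAM (adjusted p = 0.0253). Over both it was -0.53 ± 0.0872 (adjusted p = 0.000317). At 10.5, the library labelled WT replicate 1 lay among the knockouts, and with 16 libraries the adjusted p in KO against WT was 0.137. Sqstm1 had the opposite sign, at 129 to 148 in WT and 147 to 240 in KO, which overlapped, with a log2 fold change of 0.46 ± 0.185 in KO against WT (adjusted p = 0.135), or 0.24 without KO replicate 11. Nbr1, a second ubiquitin receptor, had -0.07 in KO against WT. Bnip3, a mitophagy receptor of the outer mitochondrial membrane, had -0.27 there and -0.10 in KO_TAM against WT_TAM. All 3 values turned positive under library size scaling.

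Tfeb (chr17:47737030-47792419, plus strand) encodes the factor that drives lysosomal and autophagy genes when it enters the nucleus. Its level was 12.8, 12.6 and 12.3 in WT, 16.6, 15.7, 15.8 and 13.98 in WT_TAM, 8.37, 12.05 and 12.4 in KO and 12.8, 9.67, 10.4 and 10.2 in KO_TAM. KO overlapped WT through replicate 11, whereas KO_TAM lay below WT_TAM. The log2 fold change was -0.18 ± 0.159 in KO against WT (adjusted p = 0.494), -0.52 ± 0.116 in KO_TAM against WT_TAM (adjusted p = 0.0112) and -0.36 ± 0.0973 over both treatments (adjusted p = 0.00983). The last call held under 3 of 23 alternatives. The library labelled WT replicate 1, at 23.7, had the highest Tfeb level of all 16.

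None of the 6 genes of the lysosomal membrane and of traffic to the lysosome passed at 0.01. The membrane glycoproteins Lamp1 and Lamp2 had log2 fold changes of 0.20 and 0.14 in KO against WT and 0.15 and 0.30 in KO_TAM against WT_TAM. Lamp2, whose loss causes a vacuolar myopathy, had 11.7, 11.8 and 10.6 in WT and 12.999, 11.8 and 12.1 in KO. Over both treatments it was 0.21 ± 0.0726 (adjusted p = 0.0402). Mcoln1, the calcium channel of the lysosome, had -0.09 in KO against WT and -0.30 in KO_TAM against WT_TAM. Vps16, a subunit of the tethering complex for fusion, had 0.34 and 0.17.

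Rab7 and Npc1 stood on the lower side. Rab7 encodes the GTPase of late endosomes and lysosomes and had 94.4, 101 and 85.9 in WT and 74.0, 71.0 and 80.3 in KO. Its log2 fold change was -0.30 ± 0.124 in KO against WT (adjusted p = 0.144), -0.36 ± 0.139 in KO_TAM against WT_TAM (adjusted p = 0.101) and -0.34 ± 0.0962 over both (adjusted p = 0.0134). Npc1, the exporter of cholesterol from the lysosome, had -0.31, -0.37 and -0.35 ± 0.108 (adjusted p = 0.0203). Under library size scaling the KO against WT values of both genes turned positive.

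Of 5 lysosomal enzymes, 3 cathepsins were higher. Ctsz (chr2:174427493-174439039, minus strand) encodes cathepsin Z, a carboxypeptidase. Its level was 30.5, 27.3 and 28.0 in WT and 34.0, 19.0, 29.1 and 30.8 in WT_TAM. In KO it was 47.7, 70.6 and 51.9, and in KO_TAM 56.1, 44.1, 52.8 and 44.8. No knockout library overlapped a wild-type one, and the mean in KO was 56.7 ± 12.2 (SD, n = 3) against 28.6 ± 1.7 in WT. The log2 fold change was 1.01 ± 0.164 (adjusted p = 0.00632), and 0.81 ± 0.169 in KO_TAM against WT_TAM (adjusted p = 0.00824). The library labelled WT replicate 1 had 61.3, and with 16 libraries the first value was 0.87 (adjusted p = 0.145).

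Ctsk (chr3:95499256-95509362, plus strand) encodes cathepsin K, the collagenase of osteoclasts. It had 17.2, 19.1 and 18.3 in WT, 13.4, 9.36, 15.8 and 15.4 in WT_TAM, 21.6, 35.1 and 23.8 in KO and 29.1, 24.2, 20.6 and 25.3 in KO_TAM. The genotypes did not overlap, and the log2 fold change was 0.58 ± 0.184 in KO against WT (adjusted p = 0.0694) and 0.88 ± 0.17 in KO_TAM against WT_TAM (adjusted p = 0.00573). The first value was 0.35 without KO replicate 10 and 0.36 with 16 libraries (adjusted p = 0.358). Ctsl (chr13:64359337-64370890, minus strand) encodes cathepsin L, an endopeptidase. It had 92.0, 88.4 and 89.9 in WT, 107, 72.2, 99.9 and 94.3 in WT_TAM, 115, 124 and 176 in KO and 127, 122, 160 and 111 in KO_TAM. Here too every knockout library was above every wild-type library, with 0.64 ± 0.167 (adjusted p = 0.0376) and 0.48 ± 0.15 (adjusted p = 0.0485) in the 2 comparisons and 0.55 ± 0.118 over both (adjusted p = 0.00231). Of its exon bases, 26.8% overlap genes on the other strand.

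Ctsb and Gaa were not called in any comparison. Ctsb, cathepsin B, had 80.5 to 95.6 in WT and 90.1 to 103 in KO, with log2 fold changes of 0.15 and -0.07 in the 2 comparisons. Gaa, the acid glucosidase that breaks down glycogen and is lost in Pompe disease, had 46.0 to 60.6 in WT, 48.5 to 55.4 in WT_TAM, 40.6 to 53.0 in KO and 35.2 to 46.3 in KO_TAM. Its log2 fold changes were -0.14 and -0.33 (adjusted p = 0.599 and 0.0666), the lowest among the 5 enzymes, and the first was 0.18 under library size scaling. The summed level of the 4 cathepsins was 217 to 235 in WT and 287 to 341 in KO, and Ctsz made up 12.5 to 13% of it in WT and 15.2 to 22% in KO.

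Markers of macrophages, cells rich in lysosomes, were also higher as a sum in the knockouts. The summed level of 12 macrophage genes was 138.5 to 155.4 in WT, 62.4 to 173.7 in WT_TAM, 181.1 to 273.0 in KO and 184.9 to 326.5 in KO_TAM, with no overlap between KO and WT or between KO_TAM and WT_TAM. Of the 12, 11 had a positive log2 fold change in KO against WT and 12 in KO_TAM against WT_TAM. The 12 include Ctss, itself a cathepsin gene, at 1.08 in KO against WT, so that the list is not independent of the cathepsins. In the same comparison Cd68 was at 1.39, Adgre1 at 0.16 and Mrc1 at -0.09. At an adjusted p of 0.01 none passed in either comparison by edgeR, while 9 and 8 had an unadjusted p under 0.05, and at an adjusted p of 0.05 4 and 3 passed. Of all genes, 3.6% and 6.72% passed 0.01 in the 2 comparisons and 12.8% and 17% passed 0.05. An unadjusted p under 0.05 was found for 30.1% and 32.3% of all genes. Over both treatments, where the 3 cathepsins were called, 4 of the 12 were called as higher, and 8 at an adjusted p of 0.05. Of all genes, 8.99% were called there as higher and 10.4% as lower, and 33.3% passed 0.05 in either direction. Within groups the libraries did not keep 1 order. WT_TAM replicate 6 was lowest of WT_TAM in the macrophage sum and in Ctsz, Ctsk and Ctsl, and KO replicate 10 was highest of KO in the sum, Ctsz and Ctsk but not in Ctsl. Of KO replicates 9 to 11, replicate 9 was lowest in the sum and in Ctsz, Ctsk and Ctsl. KO_TAM replicate 15 had the highest sum of all libraries, with the highest Ctsl and the lowest Ctsk of KO_TAM. The library labelled WT replicate 1 had a sum of 139.3 with Ctsz at 61.3. The summed level of 8 fibroblast and matrix genes was 960 to 1104 in WT and 909 to 1348 in KO, with 1 of them called as higher in each comparison and 3 over both treatments. Of 10 skeletal muscle fiber genes 0 were called in KO against WT, with 6 at an unadjusted p under 0.05, while 4 were lower in KO_TAM against WT_TAM and 6 over both. Of 6 endothelial, 4 satellite cell, 5 fat cell and 4 red blood cell genes 0 were called in either comparison. In KO against WT 2, 2, 0 and 0 had an unadjusted p under 0.05, beside 30.1% of all genes. Over both treatments 1 endothelial gene, Tek (adjusted p = 0.00265), and 1 satellite cell gene, Pax7 (log2 fold change -1.33, adjusted p = 0.000325), were lower. By sign alone, 3 of the 6 endothelial genes were positive there and 3 negative, and of the 4 satellite cell genes 1 was positive and 3 negative. No gene of these lists was at 0 in all libraries. The part of these cells in the cathepsin levels was not tested. In muscle homogenate, fewer cells of a type and less RNA per cell cannot be told apart.

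**Figure D4:**
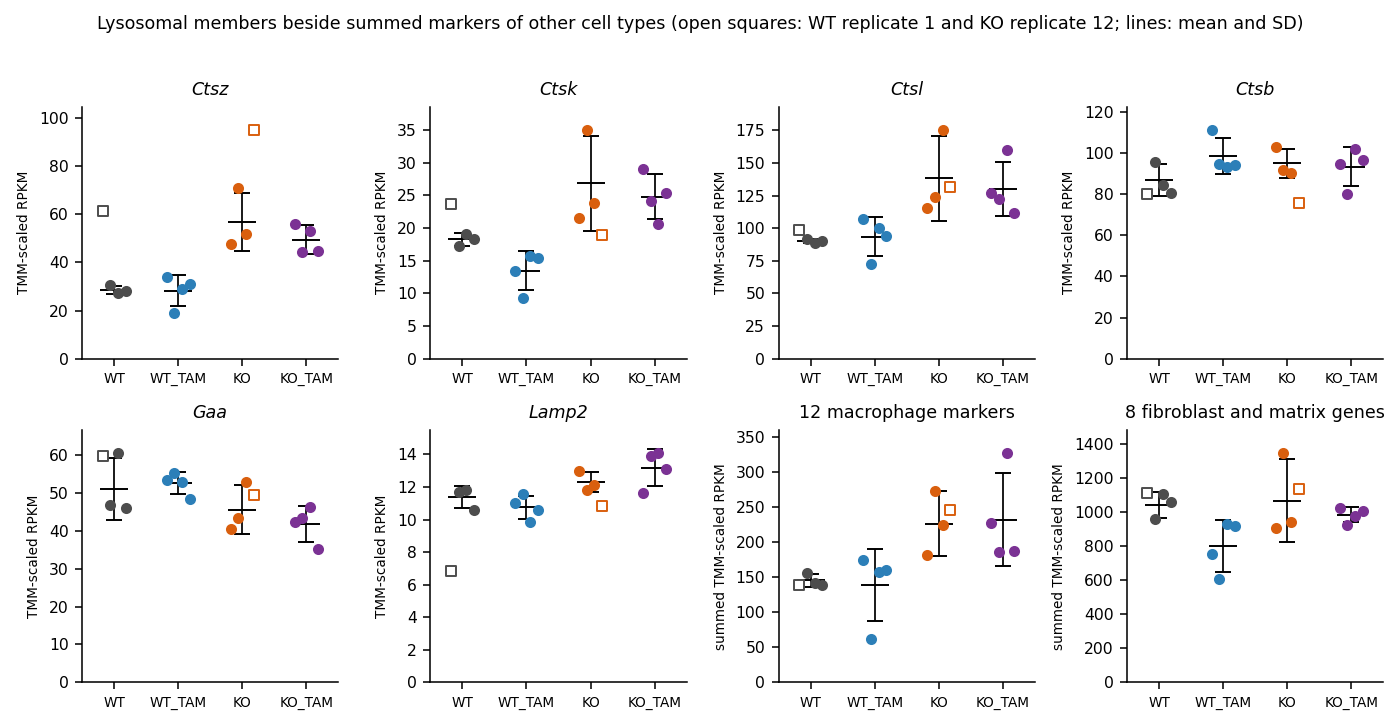
TMM-scaled RPKM (y axis, from 0) of 6 lysosomal genes in each library by group, and the summed levels of 12 macrophage and 8 fibroblast and matrix genes, with mean and SD over n = 3 or 4 libraries and open squares for WT replicate 1 and KO replicate 12. Over the filled points Ctsz, Ctsk, Ctsl and the macrophage sum are higher in both knockout groups than in the matching wild-type groups. There Ctsb overlaps, and Gaa is apart only between KO_TAM (35.2 to 46.3) and WT_TAM (48.5 to 55.4). The open square of WT replicate 1 is at 61.3 for Ctsz.

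The start sites of these genes were searched for the letters that TFEB and its relatives bind, which is why the sequences are shown. RefSeq start sites (GRCm38.p6) were given for 30 of the 36 genes, as 300 bases each, 250 before the start and 50 after it. The E-box CACGTG, which reads the same on both strands, was in 10 of 30 genes (33.3%) and in 8.09% of 27025 genes. The longer TCACGTG, the core of the CLEAR element named for coordinated lysosomal expression and regulation, was counted on either strand and contains the E-box. It was in 7 of 30 genes (23.3%) and in 4.29% of all genes. By class it was in 4 of 9 lysosomal genes (44.4%) and in 3 of 20 autophagosome genes (15%). The FoxO letters GTAAACA, counted on both strands, were in 0 of 30 genes and in 4.05% of all genes.

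Lamp1 had 4 E-boxes within 61 bases of its start, and Mcoln1, Vps16, Gaa and Atg3 carried the core too. The 250 bases before the start are printed 5′ to 3′ on the strand of the gene, with capitals for TCACGTG or its complement CACGTGA, for Lamp1 (chr8:13158911-13159160, plus strand), Mcoln1 (chr8:3500269-3500518, plus strand), Vps16 (chr2:130424070-130424319, plus strand), Gaa (chr11:119267713-119267962, plus strand) and Atg3 (chr16:45158579-45158828, plus strand).
Lamp1: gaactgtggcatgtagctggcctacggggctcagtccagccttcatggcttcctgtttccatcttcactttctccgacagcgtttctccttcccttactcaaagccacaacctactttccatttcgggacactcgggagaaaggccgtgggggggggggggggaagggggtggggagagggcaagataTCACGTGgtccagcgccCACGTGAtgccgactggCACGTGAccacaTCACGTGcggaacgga
Mcoln1: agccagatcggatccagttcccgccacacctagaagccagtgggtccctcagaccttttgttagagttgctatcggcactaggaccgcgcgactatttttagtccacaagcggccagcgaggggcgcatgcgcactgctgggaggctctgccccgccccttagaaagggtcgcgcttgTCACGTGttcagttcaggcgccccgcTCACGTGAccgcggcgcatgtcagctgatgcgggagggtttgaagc
Vps16: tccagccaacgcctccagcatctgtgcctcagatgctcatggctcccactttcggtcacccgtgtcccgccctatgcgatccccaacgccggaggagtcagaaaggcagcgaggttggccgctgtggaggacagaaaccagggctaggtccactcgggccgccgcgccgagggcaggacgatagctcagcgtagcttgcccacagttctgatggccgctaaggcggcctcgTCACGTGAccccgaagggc
Gaa: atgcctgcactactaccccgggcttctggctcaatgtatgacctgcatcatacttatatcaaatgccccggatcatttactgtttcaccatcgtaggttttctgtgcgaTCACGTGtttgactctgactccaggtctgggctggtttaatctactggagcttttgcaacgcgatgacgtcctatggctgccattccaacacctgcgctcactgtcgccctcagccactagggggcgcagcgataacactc
Atg3: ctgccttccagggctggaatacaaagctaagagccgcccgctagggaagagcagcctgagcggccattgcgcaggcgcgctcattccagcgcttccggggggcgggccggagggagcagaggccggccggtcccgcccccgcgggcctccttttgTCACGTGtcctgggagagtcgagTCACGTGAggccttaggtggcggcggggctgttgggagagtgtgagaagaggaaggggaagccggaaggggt

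None of the 11 genes called over both treatments that had a start site held the core, and 1, Ctsl, held an E-box at 236 bases before its start. For Optn and Ctsk, which are among them, the bases after the start were not found in an annotated transcript of the gene. The called genes Map1lc3a, Atg12 and Atg16l1 had no start site to search. Among the 19 genes with a start site that were not called, 7 held the core. For contrast, the same stretch is shown for Ctsz (chr2:174439040-174439289, minus strand) and Atg9a (chr1:75192011-75192260, minus strand), the lysosomal and the autophagosome gene with the largest log2 fold changes that had a start site.
Ctsz: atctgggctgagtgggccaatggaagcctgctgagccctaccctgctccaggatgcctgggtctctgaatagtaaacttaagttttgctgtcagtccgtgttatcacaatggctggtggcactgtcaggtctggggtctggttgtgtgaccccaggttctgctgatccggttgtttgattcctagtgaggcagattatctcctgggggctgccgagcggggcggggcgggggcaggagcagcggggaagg
Atg9a: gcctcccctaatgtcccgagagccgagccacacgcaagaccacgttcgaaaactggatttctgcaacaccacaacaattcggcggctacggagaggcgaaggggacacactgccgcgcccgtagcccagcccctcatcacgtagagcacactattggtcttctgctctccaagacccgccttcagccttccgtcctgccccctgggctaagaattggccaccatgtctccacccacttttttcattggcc
Neither stretch has capitals, since neither holds CACGTG. A match is a description of letters, not of binding, and these genes were few.

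Further genes of the pathway, in 3 lists that do not include the 36, were counted in the same way. Of 32 other autophagosome genes tested, 0 were called as higher and 0 as lower in either KO against WT or KO_TAM against WT_TAM by edgeR, with 7 and 10 at an unadjusted p under 0.05, beside 30.1% and 32.3% of all genes. Over both treatments 0 were higher and 7 lower, beside 10.4% of all genes that were lower. The lower genes included Atg2a, which transfers lipid to the growing membrane, at -0.54 ± 0.0979 (adjusted p = 0.000667). Vmp1, an ER scramblase, had -0.49 ± 0.0941 (adjusted p = 0.00105), and Stx17, the SNARE for fusion with lysosomes, -0.53 ± 0.112 (adjusted p = 0.00219). The median of the list was -0.10 over both treatments, beside 0.01 for all genes.

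Of 38 other lysosomal enzymes, 2 were higher in KO against WT, 3 in KO_TAM against WT_TAM and 6 over both, while 1, the peptidase Tpp1, was lower over both, beside 8.99% and 10.4% of all genes. Dnase2a, the acid DNase, had 1.39, 1.21 and 1.43 in WT and 2.97, 4.95 and 5.27 in KO. Its log2 fold change was 1.73 ± 0.218 (adjusted p = 0.00213), and 1.05 ± 0.206 with tamoxifen (adjusted p = 0.00602). Lgmn, an asparaginyl protease, had 19.6, 22.03 and 18.8 in WT and 32.9, 53.6 and 38.3 in KO, with 1.07 ± 0.186 (adjusted p = 0.00833) and 1.3 ± 0.205 (adjusted p = 0.00204) in the 2 comparisons. Hexa, a subunit of hexosaminidase, was called in KO_TAM against WT_TAM at 0.82 ± 0.13 (adjusted p = 0.00213). The part of other cell types in the levels of these enzymes was not tested.

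Of 43 further genes of the lysosomal membrane, the proton pump and the MiT factors, 10 were higher and 6 lower over both treatments, where 8.99% and 10.4% of all genes were called. In KO against WT 2 were higher and 0 lower, and in KO_TAM against WT_TAM 4 were higher and 1 lower. Atp6v1a, the catalytic subunit of the pump that acidifies the lysosome, had 5.65, 5.13 and 4.92 in WT and 8.30, 8.39 and 9.72 in KO, with a log2 fold change of 0.77 ± 0.125 (adjusted p = 0.00614). Its accessory protein Atp6ap2 had 0.78 ± 0.132 (adjusted p = 0.00743). With tamoxifen these were 0.87 ± 0.113 and 0.90 ± 0.132 (adjusted p = 0.000789 and 0.00141). In KO_TAM against WT_TAM Atp6v0a1, a membrane subunit, was lower at -0.51 ± 0.0945 (adjusted p = 0.00469), and Cd63, a tetraspanin of late endosomes, was higher at 0.94 ± 0.185 (adjusted p = 0.00602). Rragd, a GTPase that ties mTORC1 to the lysosome, was lower over both treatments at -0.73 ± 0.137 (adjusted p = 0.000893).

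Tamoxifen was then compared with standard chow within each genotype. In KO_TAM against KO, 0 of the 36 genes passed an adjusted p of 0.01 by edgeR, as did 0% of 15062 genes. At an unadjusted p under 0.05 there was 1 of the 36, Optn, and 7.55% of all genes. DESeq2 called 0 of the 36 and 0.478% of all genes. The log2 fold changes of the 36 ran from -0.25 to 0.31, and the 95% intervals of all 36 lay within -1 and 1. The intervals reached 0.238 to 0.54 to each side, so that smaller effects could not be told from 0.

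The genes that differed most by genotype had intervals that spanned 0 with tamoxifen in KO. Ulk1 had a log2 fold change of 0.10 (95% interval -0.19 to 0.39), Atg9a 0.13 (-0.41 to 0.67) and Ctsz -0.21 (-0.56 to 0.14) in KO_TAM against KO. Optn was the only gene whose KO_TAM libraries did not overlap those of KO, at 0.31 ± 0.141 (adjusted p = 0.657). The share of all genes without overlap in this comparison is not given here, so this does not set Optn apart. The 24 autophagosome genes had a median of 0.06 and the 11 lysosomal genes -0.04, beside -0.01 for all genes.

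In WT_TAM against WT, 0 of the 36 passed by edgeR, beside 0.131% of 14544 genes. At an unadjusted p under 0.05 there were 3 of the 36 (Map1lc3a, Tfeb and Ctsk) and 10.7% of all genes. DESeq2 called 1 of the 36, Map1lc3a (adjusted p = 0.00463), and 1.47% of all genes. Map1lc3a was 1.63 times as high in WT_TAM, with a log2 fold change of 0.71 ± 0.17 (edgeR adjusted p = 0.135). The 4 WT_TAM libraries lay above the 3 of WT, but the library labelled WT replicate 1 was above all of WT_TAM, and with it the value was 0.35 (adjusted p = 0.748). Tfeb had 0.30 ± 0.102 (adjusted p = 0.325) and Ctsk -0.44 ± 0.172 (adjusted p = 0.407), neither overlapping between the groups. The share of all genes without overlap in this comparison is not given here, so the separation of Map1lc3a, Tfeb and Ctsk does not set them apart. With 16 libraries Tfeb was at 0.02.

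Whether tamoxifen acted differently in KO than in WT was tested as an interaction, which was called for 0 of the 36 genes and 0% of 15556 genes by edgeR. At an unadjusted p under 0.05 there was 1 of the 36 and 4.27% of all genes, and DESeq2 called 0 of the 36 and 0.0855% of all genes. The gene was Map1lc3a, at -0.63 ± 0.264 (95% interval -1.19 to -0.07, adjusted p = 0.9998). In the separate fits the knockout effect on this gene was 0.44 with tamoxifen and 1.09 without it. For the other 35 genes the interval lay within -1 and 1.

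**Figure D5:**
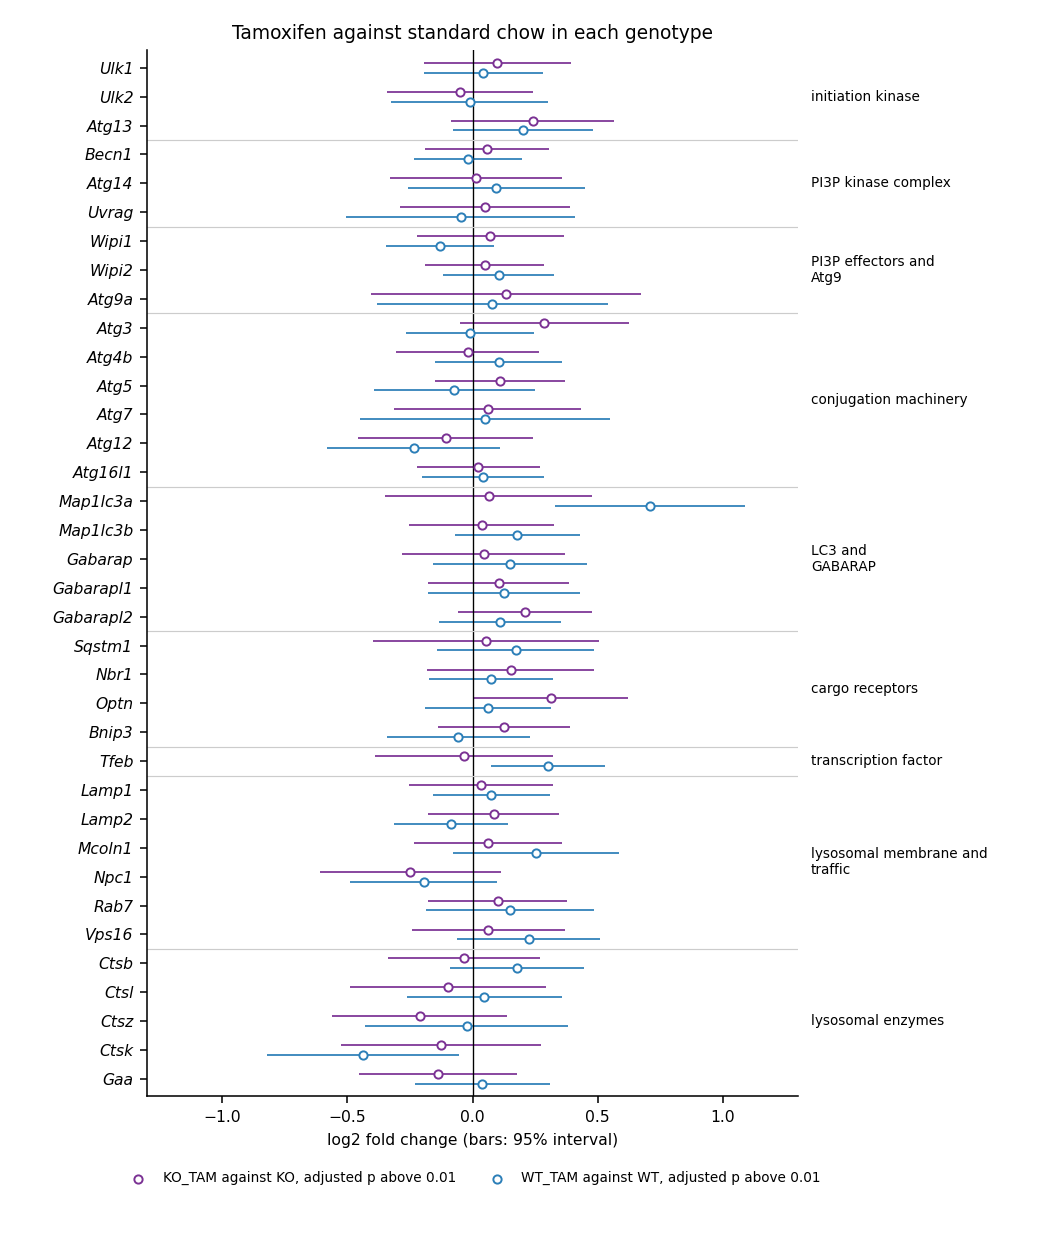
Log2 fold change (x axis) of each gene (y axis, grouped by role) in KO_TAM against KO (purple) and WT_TAM against WT (blue), with bars for the 95% interval and open points throughout, since no adjusted p was at most 0.01. The values lie between -0.25 and 0.31 in the knockout, and Map1lc3a reaches 0.71 in the wild type.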

How the data were processed

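RNA of quadriceps muscle from 16 mice was sequenced as 1 library per mouse, with 4 libraries in each of WT, WT_TAM, KO and KO_TAM. The authors aligned reads with STAR (version 2.5.0c per the labels) to GRCm38 and counted them per gene with HTSeq, and deposited raw counts and RPKM for 41388 genes. The annotation, strand setting and gene lengths behind the deposited counts and RPKM are unknown, since no source used here gives them. Deposited RPKM were checked against the counts over 4037 genes, and the largest relative deviation was 1.04e-04.

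Counts of the 14 libraries that the study compared were tested with edgeR 4.0.16 in R 4.3.3 over all genes that passed filterByExpr (minimum count 10, minimum total 15), with TMM factors and the quasi-likelihood test. Calls were made at a Benjamini-Hochberg adjusted p of 0.01. The study used the same threshold but drew on adjusted p-values from both DESeq and edgeR, so its counts are not those given here. It reported some transcripts that differed with tamoxifen in knockouts, where the quasi-likelihood test called no gene. Each comparison was fitted on its own groups, and the interaction and the genotype effect over both treatments on all 4 groups. The SE is the log2 fold change over the root of the F statistic. As alternatives, the comparisons were repeated with DESeq2 1.42.0, with the exact test of edgeR, with limma 3.58.1 on log2 of RPKM with a pseudocount of 0.1 or 1, other scalings and filters, all 16 libraries and leaving out each library. The statistical steps were tested on simulated counts. Levels are deposited RPKM over the TMM factor, given per library.

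The 36 genes, the pathway lists and the marker lists were chosen with earlier results of these data known. All 36 were described. From the other pathway lists, at most the 6 genes with the lowest p per list and comparison were named, along with the single gene of a direction. Gene positions and overlaps came from GENCODE vM21, in which 40254 of the 41388 identifiers were found, and start sites from RefSeq on GRCm38.p6. The labels give neither sex nor litter, and their age of day 36 is 1 day above the age in the study's supplement.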

Additional observations from a re-analysis of the deposited data

Results flagged for a closer look

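Of 144 groups of 4 libraries (36 genes in 4 groups), 12 had 1 library far from the other libraries of its group by Dixon's test, or 8.33%, where chance gives about 1 in 20. The library labelled WT replicate 1 accounted for 4 of them, all on the high side: Map1lc3a at 391 (others 164 to 200), Gabarap at 132 (66.5 to 72), Tfeb at 23.7 (12.3 to 12.8) and Ctsz at 61.3 (27.3 to 30.5). These are TMM-scaled RPKM, and this library is outside the 14 used for the comparisons. WT_TAM replicate 5 accounted for another 4, with Gabarapl1 at 33.3 (26.7 to 27.6), Sqstm1 at 195 (142 to 149), Ctsb at 111 (93 to 94.8) and, on the low side, Ulk1 at 12.3 (14.5 to 14.9). WT_TAM replicate 6 had Atg9a at 19.7 (11.2 to 12.5). KO replicate 12, also outside the 14, had Wipi1 at 25.9 (19.8 to 20.2). In KO_TAM, replicate 13 had Bnip3 at 81.9 (76.8 to 77.5) and replicate 16 had Ulk2 at 14.5 (10.9 to 11.4), which remained below every wild-type library of the 14.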

How the results depend on the processing

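Of the 36 genes, 3 were called in KO against WT. This count was 8 by DESeq2, 7 by edgeR's exact test, 7 by both tools together, 5 by limma with either pseudocount, 5 with library size scaling, 6 with no filter, 7 with 1 fit over the 4 groups, 8 at an adjusted p of 0.05 and 0 with 16 libraries, and 0 to 3 on leaving out 1 library. In KO_TAM against WT_TAM the count of 5 was 9 by DESeq2, 12 at an adjusted p of 0.05, and 8 each by the exact test, both tools together, limma with either pseudocount, library size scaling and 1 fit over the 4 groups, and 1 to 5 on leaving out 1 library. In WT_TAM against WT the count of 0 was 1 by DESeq2. Over both treatments the 14 calls were 9 with 16 libraries and 10 to 13 on leaving out 1 library. The counts of 0 in KO_TAM against KO and for the interaction were 0 under each alternative run. The genotype effect on Atg16l1 changed sign, to 0.0091 with limma at a pseudocount of 0.1, 0.0071 at a pseudocount of 1 and 0.0091 with library size scaling. Of the other alternative values of called genes, 369 kept their direction and side of the threshold, and 96 kept only the direction. The calls of Ulk1, Ulk2, Wipi1, Atg9a, Ctsl, Ctsz and Ctsk over both treatments held in each of 23 alternatives, while those of Tfeb held in 3 and of Atg12 in 8. The counts by other methods and scalings are given without the share of all genes, so they do not set the 36 apart from other genes. Causes of these changes were not tested. With n = 3 or 4, log2 differences under the intervals given are not detectable, and Atg7, with as few as 165 counts in a library of the 14, rests on the fewest reads. No paired analysis was possible because the groups share no replicate number and no litter is labelled, although the study describes its samples as littermates.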
